A study of Mus musculus with 20 samples.

Results

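The genes described here are 37 genes for protein folding in the endoplasmic reticulum (ER), for the unfolded protein response and for the export of secretory proteins. The list was drawn up with earlier results of these data known, and its members were taken by name, as the rows of the deposited count table whose symbol was on a list of ER chaperones, disulfide isomerases, stress sensors, degradation factors, translocon subunits, vesicle coat subunits and KDEL receptors. All 37 were among the 29986 genes of the table, and all 37 were among the 14420 genes that passed the filter on low counts and were tested. RNA sequencing covered 20 libraries of tenocytes, the fibroblast-like cells of tendon, which came from tail tendon of C57Bl/6 wild-type mice that were adult. The 4 libraries at 0 h carry no cytokine treatment. For each of 1, 2, 6 and 24 h, 4 libraries were made after treatment with the growth factor IGF1 (insulin-like growth factor 1, a recombinant protein at 100 ng/mL). Untreated cells kept for 1 to 24 h were not analysed here. The comparisons with 0 h therefore hold the IGF1 treatment and the elapsed time together, and these cannot be told apart.

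Secretory proteins such as collagen enter the ER through the Sec61 translocon, are folded there by chaperones and disulfide isomerases, and leave in vesicles coated by the COPII subunits. When unfolded proteins build up, the sensors IRE1 (gene Ern1), ATF6 and PERK start the unfolded protein response, in which the transcription factors XBP1 and ATF6 raise the transcription of chaperone and degradation genes. Tenocytes lay down the collagen-rich matrix of tendon, and IGF1 is a growth factor that raises protein synthesis in many cell types.

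Levels are given as CPM, which is a gene's count relative to its library's total, scaled by the trimmed mean of M-values, with the SD over the 4 libraries of a time. Differences are log2 fold changes ± SE from edgeR's quasi-likelihood test, two-sided, fitted over all 20 libraries. A gene is said to have risen or fallen where its Benjamini-Hochberg adjusted p over all 14420 tested genes was under 0.05, and such a result is named a call. Nothing in the labels ties the libraries of a time to separate animals or dishes, so the p-values measure the spread between these libraries, which may be technical. The libraries held 13734425 to 22687173 counts. In such bulk samples fewer cells of a type and less RNA per cell cannot be told apart.

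The libraries at 2 h were less alike than those of other times. Of the 37 genes, 30 had their largest SD of log2 CPM at 2 h, against 50.7% of all tested genes, and the median SD of the 37 was 0.15 at 2 h against 0.050 to 0.061 at the other times. The library 2 h replicate 4 held the highest 2 h level of 24 of the 37 genes and the lowest of another 11, and 2 h replicate 2 held the lowest of 18. The 13 macrophage markers also differed most at 2 h: their summed level was 275 to 347 CPM in the 0 h libraries and 415 to 1094 CPM in those of 2 h, while the libraries of 1, 6 and 24 h held 251 to 548, 291 to 465 and 203 to 366 CPM. Of the 12 macrophage markers tested, 11 rose at 2 h (median log2 1.08), and the medians at 1, 6 and 24 h were 0.34, 0.22 and -0.060. Cd14 was the tested marker that did not pass at 2 h (log2 0.10). The untested marker, Fcgr1, stood at 0 in 10 of the 20 libraries, and the defining markers C1qa, C1qb, C1qc, Adgre1 and Csf1r were above 0 in all 20. Endothelial markers were lowest at 6 h, with a summed level of 7.56 to 12.2 CPM against 38.2 to 41.3 at 0 h, most of it from Tek. Of their other markers, Cldn5, Emcn, Pecam1 and Cdh5 were at 0 in 16, 10, 4 and 1 of the 20 libraries. Kdr and Vwf were above 0 in all 20, at no more than 4.08 and 3.52 CPM. The 3 endothelial markers tested went in both directions, with differences from 0 h of log2 -0.87 to 1.39 at 2 h and -2.25 to 0.16 at 6 h. The 7 pericyte and smooth muscle markers summed to 649 to 719 CPM at 0 h, 466 to 519 at 6 h and 369.5 to 418 at 24 h. Most of this was Acta2, at 325 to 725 CPM over all libraries, while Cspg4, the next highest, reached 42.7 CPM. Of the 6 tested, 1 fell and 0 rose at 6 h, against 19.6% and 20.6% of all tested genes. The 7 Schwann cell markers summed to 6.49 to 8.10 CPM at 0 h and to 6.22 to 92.7 at 2 h. Their 2 h mean was 30.15 ± 41.9 CPM, so a single library held most of that sum. The part of these cells in the values of the ER genes was not tested. The 8 tenocyte markers, among them the collagen genes Col1a1 and Col1a2, held 7.21% of all CPM at 0 h and 5.92% to 6.79% at the other times. Of the plasma cell and B cell markers only Sdc1 was tested, and the others stood at no more than 0.328 CPM in any library.

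After 6 h of IGF1 most of the folding and export genes stood higher than in untreated cells, and at 24 h this was no longer so. Of the 25 genes that rose at 6 h, 6 were below the untreated level at 24 h (Hspa5, Hyou1, Manf, Dnajb9, Hsp90b1 and Xbp1). Of the 37 genes, 25 rose and 1, the sensor gene Atf6, fell at 6 h against 0 h, while 20.6% of all tested genes rose and 19.6% fell. The median difference of the 37 was log2 0.33, against -0.0019 over all tested genes. Their summed level was 18560 ± 401 CPM at 0 h and 22430 ± 481 CPM at 6 h, while 1, 2 and 24 h had 18330 ± 458, 18050 ± 1347 and 16920 ± 345 CPM. This sum was 1.86% of all CPM at 0 h, 2.24% at 6 h and 1.69% at 24 h. The 6 h libraries, at 21940 to 23080 CPM, all lay above the 16 other libraries, of which the highest was 2 h replicate 4 at 19810 CPM. In 30 of the 37 genes all 4 libraries at 6 h lay above all 4 at 0 h, which held for 22.4% of all tested genes, and 33 of the 37 had their highest mean CPM at 6 h, against 20.8% of all tested genes. The 4 others were Ern1, Atf6 and Herpud1, highest at 0 h, and Derl3, highest at 2 h.

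**Figure D1:**
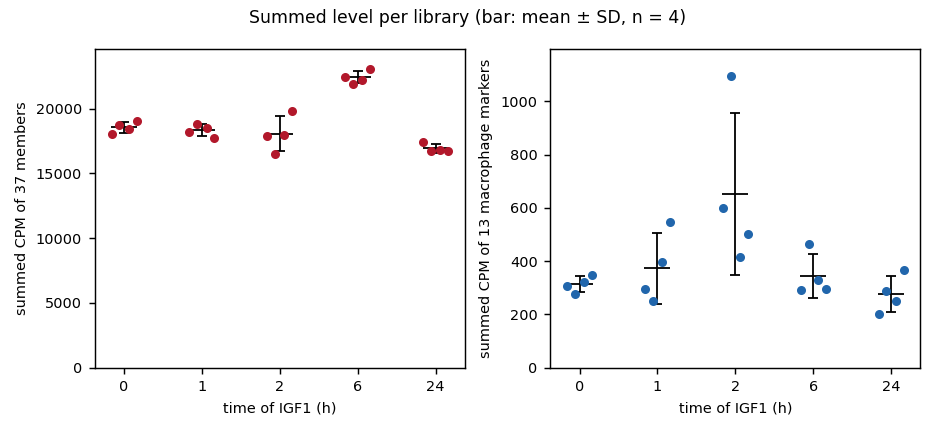
Summed CPM of the 37 ER and secretory pathway genes (left) and of the 13 macrophage markers (right) in each library, by hours of IGF1, with 1 point per library and bars for the mean ± SD of 4 libraries. The 37 genes are highest in all 4 libraries at 6 h (21940 to 23080 CPM), while the macrophage markers are highest at 2 h (415 to 1094 CPM).

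At 1 h few of these genes differed from 0 h, and at 2 h rises and falls were nearly equal in number. The counts at both times were near the shares of all tested genes. At 1 h, 3 of 37 rose (Xbp1, Sec61a1 and Sec23b) and 1 fell (Herpud1), against 6.75% and 3.88% of all tested genes. At 2 h, 9 rose and 8 fell, against 20.2% and 17.5% of all tested genes. The 1 h count of 4 was 2 on leaving out any 1 of 13 libraries. The 2 h counts became 6 and 13 without 2 h replicate 4, and became 4 and 2 when the 8 libraries at 0 and 2 h were fitted alone. Over all tested genes the number called at 2 h was 5443, with 5698 without 2 h replicate 4 and 3646 with those 8 libraries. The medians of the 37 were log2 -0.0064 at 1 h and 0.012 at 2 h, against 0.0032 and -0.0061 over all tested genes. Between 1 h and 2 h, 0 rose and 2 fell (Atf6 and Herpud1) by edgeR, against 7.5% and 8.84% of all tested genes. At an unadjusted p under 0.05, 3 were higher and 6 lower, against 14.9% and 15.4% of all tested genes. DESeq2 gave 1 higher and 5 lower for that step. Without 2 h replicate 4 the step also gave 1 higher and 5 lower by edgeR, and on leaving out any 1 of 16 other libraries it gave 1 gene in all. Leaving out both 2 h replicates 1 and 2 gave 8 genes, and a fit of only the 8 libraries at 1 and 2 h gave 0. Over all tested genes this step gave 2357 calls, with 2685 by DESeq2 and 2739 without 2 h replicate 4. It gave 2431 without both 2 h replicates 1 and 2, and 776 with only the 8 libraries.

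Most of the change came between 2 h and 6 h, and it was undone by 24 h. Between 2 h and 6 h, 27 of the 37 rose and 0 fell by edgeR, against 13.6% and 13.7% of all tested genes, with a median of log2 0.26 against -0.011 over all tested genes. Before adjustment, 0 of 37 fell at a p under 0.05, against 19.2% of all tested genes, and DESeq2 called 0 lower and 28 higher. Between 6 h and 24 h, 29 fell and 0 rose by edgeR, against 18.2% and 17.6% of all tested genes, with a median of log2 -0.34 against 0.011. Before adjustment, 0 rose at a p under 0.05, against 21.7% of all tested genes, and DESeq2 called 0 higher and 29 lower. In 33 of the 37 genes all 4 libraries at 24 h lay below all 4 at 6 h, against 21.3% of all tested genes. The comparisons with 0 h share the 0 h libraries and these steps share the 2 h and 6 h libraries, so they are not separate evidence of each other. In the test over all 5 times, 32 of the 37 differed, against 63.7% of all tested genes, and the 5 that did not were Txndc5, Ern1, Derl1, Derl2 and Derl3.

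**Figure D2:**
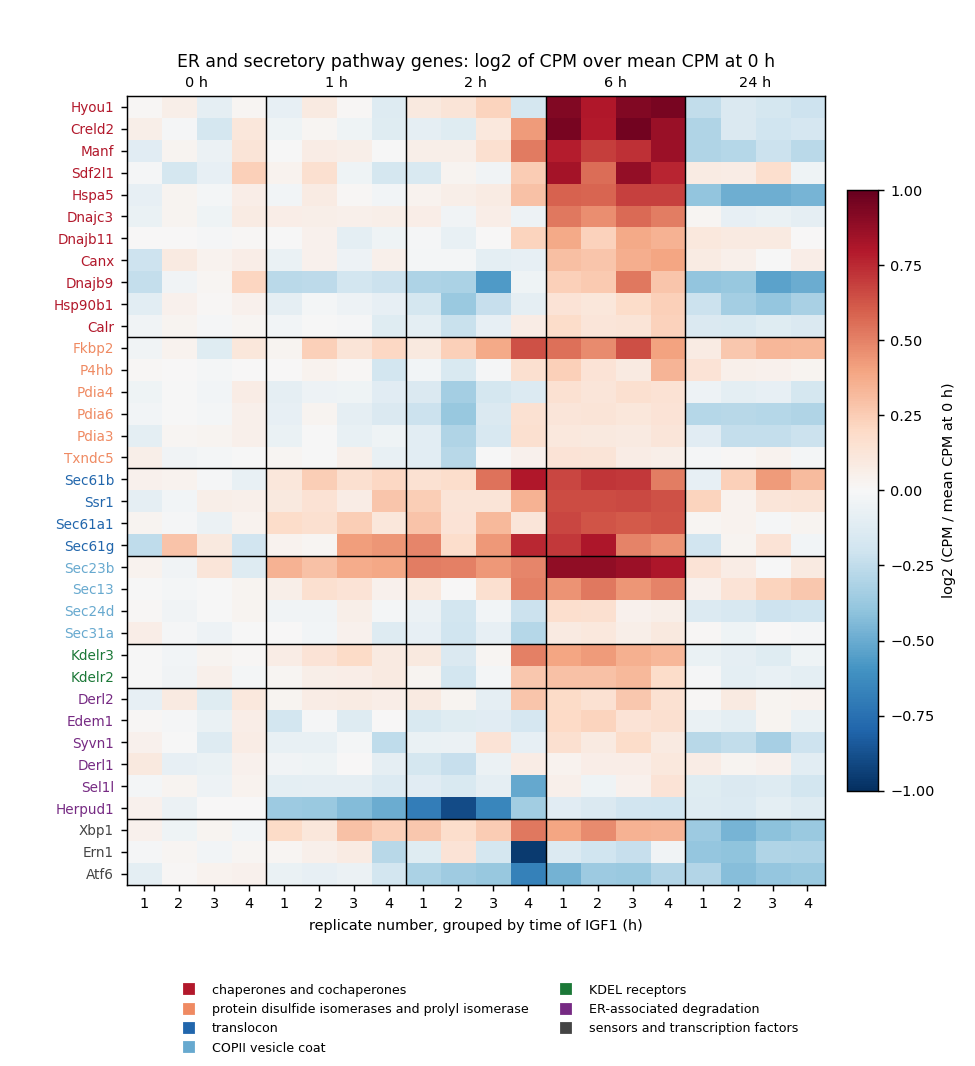
Log2 of CPM over the mean CPM at 0 h for 36 of the 37 genes (rows, coloured by role) in each of 20 libraries (columns, replicates 1 to 4 at 0, 1, 2, 6 and 24 h), red for higher and blue for lower. Derl3 is left out because its mean level was under 1 CPM at every time. The chaperone rows are red in all 4 libraries at 6 h, Herpud1 is blue at 1 and 2 h, and 2 h replicate 4 differs in colour from its 3 partners in many rows.

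The ER stress response element (ERSE) is the promoter motif through which NF-Y together with ATF6 or XBP1 is known to act, and its letters were sought to show which of these genes carry it. The promoters came from RefSeq on build GRCm38.p6, as 250 bases before to 50 after each gene's start, and 31 of the 37 genes were in that table. Those without an entry were Manf, Hyou1, Sec61a1, Derl1, Atf6 and Kdelr2. The letters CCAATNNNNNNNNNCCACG, on either strand, were found in the promoters of 9 genes: Hspa5, Calr, Canx, Creld2, Dnajc3, Hsp90b1 (at 2 places), Pdia6, Syvn1 and Derl3. Over all 32851 promoters of the table, 39 held a match (0.119%). The stretches of 6 of these genes are printed 5′ to 3′ on the gene's strand, with CCAAT and CCACG in capitals, or CGTGG and ATTGG where the match is on the opposite strand. They were chosen to show the strongest called rises at 6 h among genes with a match (Hspa5, Creld2 and Dnajc3) and a chaperone with a small rise (Calr). Pdia6 and Syvn1 show a disulfide isomerase gene and a degradation gene with a match. Derl3, another degradation gene with a match, is not printed, and neither are Canx and Hsp90b1. The 6 h difference of Derl3, which stood at 0.483 CPM at 0 h, was log2 0.70 and was not called.
Hspa5: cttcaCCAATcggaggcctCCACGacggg
Creld2: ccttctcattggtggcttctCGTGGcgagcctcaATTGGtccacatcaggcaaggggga
Dnajc3: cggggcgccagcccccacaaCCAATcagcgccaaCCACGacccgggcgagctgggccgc
Calr: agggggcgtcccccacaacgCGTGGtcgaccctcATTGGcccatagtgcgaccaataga
Pdia6: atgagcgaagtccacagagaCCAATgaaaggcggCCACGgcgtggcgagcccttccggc
Syvn1: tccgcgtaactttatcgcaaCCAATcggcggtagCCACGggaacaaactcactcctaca
These stretches lie at chr2:34772020-34772048 (Hspa5, + strand), chr15:88819500-88819558 (Creld2, +), chr14:118937807-118937865 (Dnajc3, +), chr8:84847055-84847113 (Calr, -), chr12:17266471-17266529 (Pdia6, +) and chr19:6046512-6046570 (Syvn1, +). Each lies before the start that RefSeq gives, with the first base of the match 65, 126, 105, 162, 98 and 44 bases before that start in the same order. In GENCODE M21, the annotation used for gene positions, the Hspa5 stretch lies within an exon of an upstream start and the other 5 overlap no exon. A second form, ERSE-II, with the letters ATTGGNCCACG, was found in 12 promoters of the table (0.0365%), among them Herpud1, as ATTGGGCCACG at chr8:94386377-94386387, and Dnajb11. The UPR element TGACGTGG was found in 222 promoters (0.676%), among them Kdelr3, Sec24d and Txndc5. A match is a run of letters and shows no binding, and a promoter without a match may still hold a working element.

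Genes with and without an ERSE match rose at 6 h. At 6 h against 0 h, 6 of the 9 rose (median log2 0.33), beside 15 of the 22 other genes in the promoter table (median 0.27). Between 6 h and 24 h, 9 of 9 fell (median -0.48), beside 16 of 22 (median -0.27). The group without an ERSE match holds Herpud1 and Dnajb11, with ERSE-II letters, and Kdelr3, Sec24d and Txndc5, with the UPR element. The difference between these groups was not tested. Of 8 tested genes outside the list whose promoter held the motif, 2 rose and 3 fell at 6 h, with a median of log2 0.013. Over all 9866 tested genes in the promoter table, 22.9% rose and 20.4% fell at 6 h, and 20.4% fell between 6 h and 24 h. The 2 of 8 that rose are near that share.

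Among the sensors and transcription factors, Xbp1 rose early and fell below the untreated level at 24 h, and Atf6 fell from 2 h on. Ern1 passed the test at no time in the fit over all 20 libraries. Under some alternatives it was called lower, most often at 24 h and less often at 2 h and 6 h. Xbp1 (chr11:5520659-5525893), the transcription factor whose messenger is spliced by IRE1, stood at 195, 184, 193 and 186 CPM in the 4 libraries at 0 h. Its 6 h libraries held 248, 263, 241 and 240.1 CPM, and its 24 h libraries 147, 137, 143 and 146 CPM. All 6 h libraries lay above and all 24 h libraries below those at 0 h. It rose by 0.21 ± 0.064 on the log2 scale at 1 h (adjusted p = 0.0314), by 0.31 ± 0.064 (adjusted p = 0.000314) at 2 h and by 0.39 ± 0.064 (adjusted p = 1.68e-05) at 6 h. At 24 h it fell by 0.40 ± 0.064 (adjusted p = 2.14e-05). The 1 h call was lost on leaving out any 1 of 16 of the 20 libraries, with an adjusted p of up to 0.165. Gene counts do not separate spliced from unspliced Xbp1 messenger, so splicing was not measured.

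Atf6 (chr1:170704674-170867771) encodes the membrane-bound sensor that is cleaved in the Golgi to release a transcription factor. Its libraries held 134, 144, 147 and 148 CPM at 0 h and 115, 112, 109.8 and 89.7 CPM at 2 h. The 2 h libraries all lay below those at 0 h. Atf6 fell by 0.43 ± 0.067 at 2 h (adjusted p = 1.23e-05), by 0.37 ± 0.067 at 6 h (adjusted p = 5.26e-05) and by 0.37 ± 0.067 at 24 h (adjusted p = 0.000114). Its 6 h and 24 h levels, 110.5 ± 5.77 and 111 ± 4.31 CPM, were within each other's spread. Ern1 (chr11:106394650-106487852), the gene of the sensor IRE1, held 64.8, 66.2, 64.2 and 66.3 CPM at 0 h and 60.1, 71.9, 57.8 and 33.6 CPM at 2 h, where replicate 4 was the lowest of all 20 libraries. Its 24 h libraries, 50.1, 49.4, 53.1 and 52.9 CPM, all lay below those at 0 h, with a difference of log2 -0.35 ± 0.14 (adjusted p = 0.083). Without 2 h replicate 4 or without 2 h replicate 2 the 24 h difference passed the test (adjusted p = 0.000217 and 0.0354). It also passed by DESeq2 (adjusted p = 0.0453), without the count filter (adjusted p = 0.000166), with the 8 libraries at 0 and 24 h fitted alone (adjusted p = 1.16e-05) and without both 2 h replicates 1 and 2 (adjusted p = 0.0141). With other scaling, the other count filter or a replicate block it did not (adjusted p = 0.0779 to 0.0898). The 2 h difference of Ern1 (log2 -0.23) passed the test under 3 of 27 alternatives, and its 6 h difference (log2 -0.15) under 1.

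All 11 chaperones and cochaperones rose at 6 h, with a median of log2 0.52 and a range of 0.17 to 0.90, and 5 of the 11 were below the untreated level at 24 h. Over all tested genes 20.6% rose at 6 h and 13.2% fell at 24 h. At 2 h, 1 of the 11 rose and 2 fell, against 20.2% and 17.5% of all tested genes. Between 6 h and 24 h, 11 of 11 fell, against 18.2% of all tested genes, with a median of log2 -0.69. The 6 h count was 9 to 11 on leaving out each library, the lowest without 6 h replicate 4, where Calr and Hsp90b1 missed the threshold.

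Hspa5 (chr2:34771970-34777547), which encodes BiP, the central Hsp70 chaperone of the ER, held 1789, 1921, 1868 and 1977 CPM at 0 h. At 6 h it held 2843, 2820, 3039 and 3029 CPM, and at 24 h 1435, 1350, 1347 and 1371 CPM. The 3 times did not overlap, with every library at 6 h above and every library at 24 h below those at 0 h. Hspa5 rose by 0.63 ± 0.058 at 6 h (adjusted p = 1.45e-09), which is 1.55-fold, and fell by 0.46 ± 0.058 at 24 h (adjusted p = 7.17e-07). Its levels at 1 h and 2 h, 1901 ± 68.1 and 2056 ± 175 CPM, gave differences of log2 0.0096 ± 0.058 and 0.12 ± 0.058 that did not pass the test.

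Hyou1 (chr9:44379490-44392369), the large Hsp70-like chaperone that exchanges the nucleotide of BiP, held 225, 232, 209 and 227 CPM at 0 h and 424, 388, 423 and 431 CPM at 6 h. No 6 h library came near those at 0 h, and its rise of log2 0.90 ± 0.069 (adjusted p = 4.23e-11), or 1.87-fold, was the largest of the 37 at that time. At 24 h it held 188, 202, 198 and 194 CPM and differed by log2 -0.19 ± 0.069 (adjusted p = 0.0387), a call lost on leaving out any 1 of 6 libraries, with an adjusted p of up to 0.0997. Creld2 (chr15:88819646-88826683), a cysteine-rich protein of the ER that is known to be induced by ER stress, held 59.1, 56.2, 50.2 and 61.3 CPM at 0 h, 109, 98.3, 111 and 103 CPM at 6 h and 46.0, 51.3, 49.4 and 50.4 CPM at 24 h. The 6 h libraries lay apart from both other times, while 24 h overlapped 0 h. Creld2 rose by 0.89 ± 0.087 at 6 h (adjusted p = 4.3e-09), and its 24 h difference was log2 -0.20 ± 0.089 (adjusted p = 0.0955), which passed the test without 2 h replicate 4 (adjusted p = 0.0152).

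Manf (chr9:106838312-106891979) encodes a small protein of the ER that binds BiP and can be secreted. It held 145, 160.5, 151 and 172 CPM at 0 h, 164, 163, 176 and 225 CPM at 2 h and 270.4, 253, 261 and 285 CPM at 6 h. The 2 h libraries overlapped those at 0 h, and replicate 4 was far above the other 3. Manf rose by 0.77 ± 0.077 at 6 h (adjusted p = 7.31e-09). At 24 h it fell by 0.26 ± 0.078 (adjusted p = 0.0118), and without 0 h replicate 4 that adjusted p was 0.0606. Its rise at 2 h, log2 0.21 ± 0.077 (adjusted p = 0.0312), was lost on leaving out any 1 of 4 libraries, and without 2 h replicate 4 the difference was log2 0.090, with an adjusted p of 0.188. On the opposite strand, 4.71% of its exonic bases overlap another gene model, and the sources used here do not give whether the counting used strand.

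The other 7 chaperone genes rose by log2 0.17 to 0.76 at 6 h. Sdf2l1, a partner of the Hsp40 protein ERdj3, rose from 18.0 ± 2.31 to 30.5 ± 2.92 CPM (log2 0.76 ± 0.10). Dnajc3, the Hsp40 cochaperone p58IPK, rose from 223 ± 10.8 to 319.7 ± 9.71 CPM (log2 0.52 ± 0.052). Dnajb11, which encodes ERdj3, and Canx, the lectin chaperone calnexin, rose by log2 0.33 ± 0.059 and 0.33 ± 0.059. The soluble lectin chaperone Calr rose by 0.17 ± 0.056, and Hsp90b1, the ER form of Hsp90 (GRP94), also by 0.17 ± 0.060. The 6 h call of Calr was lost without 6 h replicate 4 (adjusted p = 0.0552) and that of Hsp90b1 without any 1 of 3 libraries (up to 0.0859). Hsp90b1 and Dnajb9, the Hsp40 protein ERdj4, moved in both directions over time. Dnajb9 fell by 0.30 ± 0.093 at 2 h, rose by 0.33 ± 0.092 at 6 h and fell by 0.45 ± 0.094 at 24 h, all against 0 h, and the same differences of Hsp90b1 were -0.21 ± 0.060, 0.17 ± 0.060 and -0.32 ± 0.060. The 2 h fall of Dnajb9 was lost on leaving out either of 2 libraries (up to adjusted p = 0.0814), and 10.3% of the exonic bases of Hsp90b1 overlap a gene model on the other strand.

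**Figure D3:**
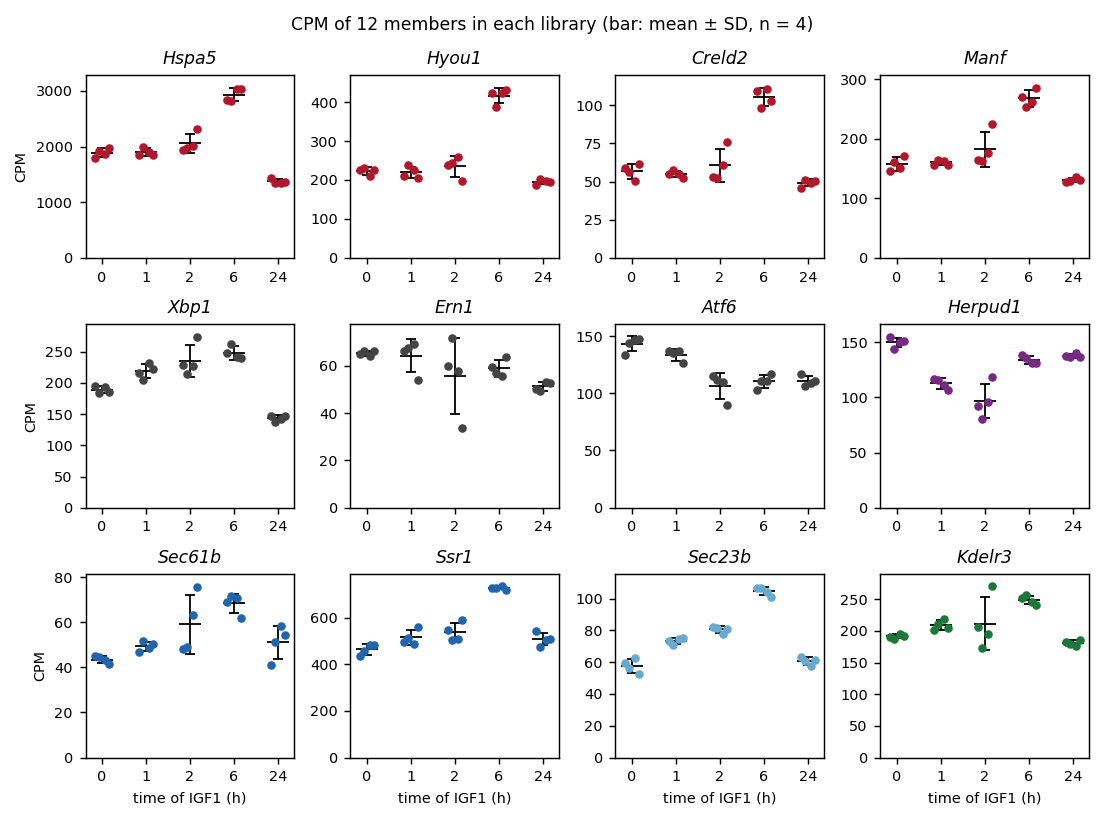
CPM of 12 genes in each library (points) by hours of IGF1, with bars for the mean ± SD of 4 libraries and a vertical axis from 0. Hspa5, Hyou1, Creld2 and Manf are highest in all 4 libraries at 6 h, Xbp1 is raised from 1 h and lowest at 24 h, Atf6 is lower from 2 h, Herpud1 is lowest at 2 h, and Sec23b is raised from 1 h.

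The disulfide isomerases form and rearrange disulfide bonds. Of these 5 genes and the prolyl isomerase Fkbp2, 3 rose at 6 h (Fkbp2, P4hb and Pdia4, with a median of the 6 of log2 0.13), and 2 fell at 24 h (Pdia3 and Pdia6). Over all tested genes 20.6% rose at 6 h and 13.2% fell at 24 h. Fkbp2 (chr19:6977741-6980501) held 13.3, 13.9, 12.5 and 14.7 CPM at 0 h and 19.9, 18.8, 21.3 and 18.0 CPM at 6 h. The 2 times did not overlap, and Fkbp2 rose by 0.52 ± 0.10 (adjusted p = 0.000176). Its rise at 2 h, log2 0.35 ± 0.10 (adjusted p = 0.00869), missed the threshold without 2 h replicate 4 (adjusted p = 0.0549). Pdia6 (chr12:17266545-17284770), an isomerase that also binds BiP, held 838, 853, 847 and 887 CPM at 0 h, 930.4, 935, 924 and 942 CPM at 6 h and 704, 706, 702 and 695 CPM at 24 h. All 6 h libraries lay above and all 24 h libraries below those at 0 h, but only the fall passed the test. The differences were log2 0.12 ± 0.072 (adjusted p = 0.181) at 6 h and -0.29 ± 0.072 (adjusted p = 0.00349) at 24 h, and without 2 h replicate 4 the 6 h difference passed too (adjusted p = 0.0232).

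P4hb, the isomerase that is also a subunit of collagen prolyl 4-hydroxylase, rose from 2498 ± 26.6 to 2879 ± 229.5 CPM at 6 h (log2 0.20 ± 0.066), a call lost without 6 h replicate 4 (adjusted p = 0.0692). Pdia4 rose by 0.15 ± 0.053 at 6 h, a call lost on leaving out any 1 of 5 libraries (up to 0.0661), and had fallen at 2 h (log2 -0.20 ± 0.053). Pdia3, the isomerase that works with calnexin and calreticulin, fell by 0.20 ± 0.067 at 24 h, a call lost on leaving out any 1 of 6 libraries (up to 0.0841). Txndc5, a thioredoxin domain isomerase, stood at 844 ± 23.8 CPM at 0 h and 906 ± 24.0 CPM at 6 h, a difference of log2 0.10 ± 0.058 (adjusted p = 0.164). Per kilobase of exonic length, the most abundant of the 37 at 0 h were P4hb at 873 ± 9.29 CPM per kb, Calr at 784 ± 15.5 and Pdia3 at 645 ± 28.5. Hsp90b1 at 479 ± 22.4 and Hspa5 at 447 ± 18.9 CPM per kb came next and overlapped within their SDs. At the other end were Sec61g at 2.26 ± 0.402 and Derl3 at 0.242 ± 0.192 CPM per kb.

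Genes of ER-associated degradation, which send misfolded proteins back to the cytosol for the proteasome, changed in both directions. Of 7 genes, 2 rose at 6 h (Edem1 and Derl2; median of the 7, log2 0.13), and 3 fell at 2 h (Herpud1, Edem1 and Sel1l). Over all tested genes 20.6% rose at 6 h and 17.5% fell at 2 h, and the 6 h count of 2 among 7 is near that share. Herpud1 (chr8:94386438-94395377), the ubiquitin-like membrane protein of the Hrd1 complex, held 155, 144, 150.5 and 151 CPM at 0 h, 117, 116, 111 and 106 CPM at 1 h and 92.7, 80.6, 95.5 and 118 CPM at 2 h. All libraries at 1 and 2 h lay below all at 0 h. Herpud1 fell by 0.41 ± 0.074 at 1 h (adjusted p = 0.000246) and by 0.63 ± 0.074 at 2 h (adjusted p = 1.3e-07), and between 2 h and 6 h it rose by 0.47 ± 0.074 (adjusted p = 2.16e-05). At 6 h it held 139, 136, 131 and 131 CPM, all still below 0 h, with a difference of log2 -0.16 ± 0.073 (adjusted p = 0.0804). Without 2 h replicate 4 or without 2 h replicate 2 that difference passed the test (adjusted p = 0.00684 and 0.0367). The ERSE-II letters shown above lie in the promoter of this gene.

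Syvn1 (chr19:6046576-6053712), the ubiquitin ligase Hrd1, held 85.7, 83.2, 76.3 and 87.6 CPM at 0 h, 93.0, 88.3, 94.4 and 88.7 CPM at 6 h and 68.5, 70.0, 66.2 and 71.9 CPM at 24 h. The 6 h libraries lay just above and the 24 h libraries below all at 0 h, and the differences were log2 0.13 ± 0.064 (adjusted p = 0.108) and -0.27 ± 0.065 (adjusted p = 0.00271). Edem1, a mannosidase-like protein that marks glycoproteins for degradation, rose by 0.18 ± 0.055 at 6 h after a fall (log2 -0.14 ± 0.055) at 2 h that was lost on leaving out any 1 of 13 libraries (up to adjusted p = 0.126). Derl2, a membrane protein of the export channel, rose by 0.19 ± 0.070 at 6 h, a call lost on leaving out any 1 of 4 libraries (up to 0.108). Sel1l, the partner of Hrd1, fell by 0.21 ± 0.067 at 2 h and differed by log2 0.049 ± 0.067 at 6 h. Derl1 differed by log2 0.069 ± 0.062 at 6 h, and Derl3 stood at only 0.483 ± 0.383 CPM at 0 h and 0.802 ± 0.122 CPM at 6 h. Its only call in these comparisons, between 6 h and 24 h, with a difference of log2 -1.57 ± 0.60 (adjusted p = 0.0419), was lost on leaving out any 1 of 7 libraries (up to 0.125).

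All 4 translocon genes had risen by 2 h (log2 0.21 to 0.48), when 1 of the 11 chaperones and 20.2% of all tested genes had. With the 8 libraries at 0 and 2 h fitted alone, the 2 h rises of Ssr1 and Sec61g missed the threshold (adjusted p = 0.057 and 0.055). Over all alternatives the number that rose at 2 h was 2 to 4 for the translocon and 0 to 3 for the chaperones. At 6 h the differences of the translocon genes from 0 h lay close together (log2 0.62 to 0.65). All 4 fell between 6 h and 24 h, against 18.2% of all tested genes. At 24 h they differed from 0 h by log2 -0.0045 to 0.24, with adjusted p of 0.115 to 0.99. Ssr1 (chr13:37966605-37994217), the alpha subunit of the translocon-associated protein complex, held 436, 456, 484 and 481 CPM at 0 h, 549.5, 507, 509 and 589 CPM at 2 h and 729, 730, 735 and 720 CPM at 6 h. The 2 h libraries all lay above those at 0 h, and the 6 h libraries above those at 2 h. Ssr1 rose by 0.21 ± 0.060 at 2 h (adjusted p = 0.00588) and by 0.65 ± 0.060 (adjusted p = 1.56e-09) at 6 h, and its 24 h level of 508 ± 26.6 CPM gave log2 0.13 ± 0.060 (adjusted p = 0.115). Sec61b (chr4:47474658-47483242), the beta subunit of the channel, held 44.9, 44.4, 43.2 and 41.4 CPM at 0 h, 48.3, 49.1, 63.3 and 75.8 CPM at 2 h and 69.1, 71.5, 70.9 and 62.0 CPM at 6 h. The libraries at 2 h all lay above 0 h but spread over the range up to and beyond 6 h. Sec61b rose by 0.44 ± 0.11 at 2 h (adjusted p = 0.00333) and by 0.65 ± 0.11 (adjusted p = 5.3e-05) at 6 h.

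Sec61a1, the channel-forming alpha subunit, stood at 331 ± 9.78 CPM at 0 h and 514 ± 7.72 CPM at 6 h. It rose by 0.64 ± 0.054 at 6 h, and by 0.18 ± 0.054 at 1 h, a call lost on leaving out any 1 of 15 libraries (up to adjusted p = 0.152). Sec61g, the gamma subunit, rose from 5.58 ± 0.990 to 8.59 ± 1.03 CPM at 6 h, and its 2 h rise was lost on leaving out any 1 of 3 libraries (up to 0.0635). Of the runs of 50 bases in their transcripts, 17.4% of those of Sec61b and 14.8% of those of Sec61g also occur in other genes, so the counts of these small subunits are uncertain where reads match more than 1 gene.

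Of the 4 COPII coat genes, 2 rose at 6 h and 2 did not pass the test, while 20.6% of all tested genes rose. Sec23b (chr2:144556229-144590749), an inner coat subunit that activates the GTPase Sar1, held 59.2, 56.2, 62.5 and 52.6 CPM at 0 h and 73.2, 70.8, 74.5 and 75.2 CPM at 1 h. At 2 h it held 82.0, 81.7, 77.7 and 80.9 CPM and at 6 h 106, 107, 104 and 101 CPM. Each of these times lay wholly above the one before. Sec23b rose by 0.35 ± 0.058 at 1 h (adjusted p = 0.0001), by 0.48 ± 0.058 (adjusted p = 2e-07) at 2 h and by 0.86 ± 0.058 (adjusted p = 3.91e-12) at 6 h, which is 1.82-fold. At 24 h, with 60.7 ± 2.41 CPM, it differed by log2 0.075 ± 0.059 (adjusted p = 0.386). Sec13 (chr6:113728062-113740743), an outer coat subunit that is also part of the nuclear pore, held 186, 183, 186 and 189 CPM at 0 h, 200.1, 187, 208 and 263 CPM at 2 h and 253, 269, 253 and 262 CPM at 6 h. The 6 h libraries lay apart from 0 h, and at 2 h replicate 4 was far above its partners. Sec13 rose by 0.48 ± 0.074 at 6 h (adjusted p = 7.99e-06). Its 2 h rise of log2 0.21 ± 0.074 (adjusted p = 0.0303) was lost without 2 h replicate 4 (log2 0.089, adjusted p = 0.18) and on leaving out any 1 of 4 other libraries.

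The other COPII genes, the inner coat subunit Sec24d that selects cargo and the outer coat subunit Sec31a, differed by log2 0.11 ± 0.054 and 0.088 ± 0.055 at 6 h. Sec24d fell by 0.18 ± 0.054 at 24 h, a call lost without 24 h replicate 3 (adjusted p = 0.0551), and Sec31a fell by 0.16 ± 0.055 at 2 h. Both KDEL receptors, which return chaperones that escape to the Golgi, rose at 6 h. Kdelr3 (chr15:79516411-79527739) held 190.4, 187, 195 and 193 CPM at 0 h, 205, 174, 194 and 271 CPM at 2 h and 251, 257, 245 and 242 CPM at 6 h. Kdelr2 (chr5:143403838-143421901) held 413, 405, 429 and 409 CPM at 0 h and 506, 507, 519 and 469.6 CPM at 6 h. For both genes all libraries at 6 h were above all at 0 h. Kdelr3 rose by 0.38 ± 0.081 (adjusted p = 0.000456) and Kdelr2 by 0.27 ± 0.066 (adjusted p = 0.00149), and at 24 h they differed from 0 h by -0.079 ± 0.082 and -0.069 ± 0.066, which did not pass the test.

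At 24 h, 11 of the 37 genes were below the untreated level and 0 were above it by edgeR, against 13.2% and 12.7% of all tested genes. The median of the 37 was log2 -0.079, against 0.0015 over all tested genes. The genes that fell were the chaperones Hspa5, Hyou1, Manf, Dnajb9 and Hsp90b1, the isomerases Pdia3 and Pdia6, Atf6, Xbp1, Syvn1 and Sec24d. At an unadjusted p under 0.05, 4 were higher and 15 lower, against 18% and 18.4% of all tested genes. DESeq2 gave 0 higher and 13 lower. The 2 h libraries enter this comparison only through the shared spread, the scaling and the filter, and the count depended on them: without 2 h replicate 4, 4 were higher (Fkbp2, Sec13, Sec61b and Ssr1) and 15 lower, and a fit of only the 8 libraries at 0 and 24 h gave 4 and 16. Leaving out both 2 h replicates 1 and 2, which held the most macrophage RNA, gave 17 genes in all. Over all tested genes the number called at 24 h also moved. It was 3746 in the fit over all 20 libraries, 4670 without 2 h replicate 4 and 4938 with the 8 libraries alone. Without both 2 h replicates 1 and 2 it was 4170. In 18 of the 37 genes the lowest mean CPM of the 5 times was at 24 h, against 24.1% of all tested genes.

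**Figure D4:**
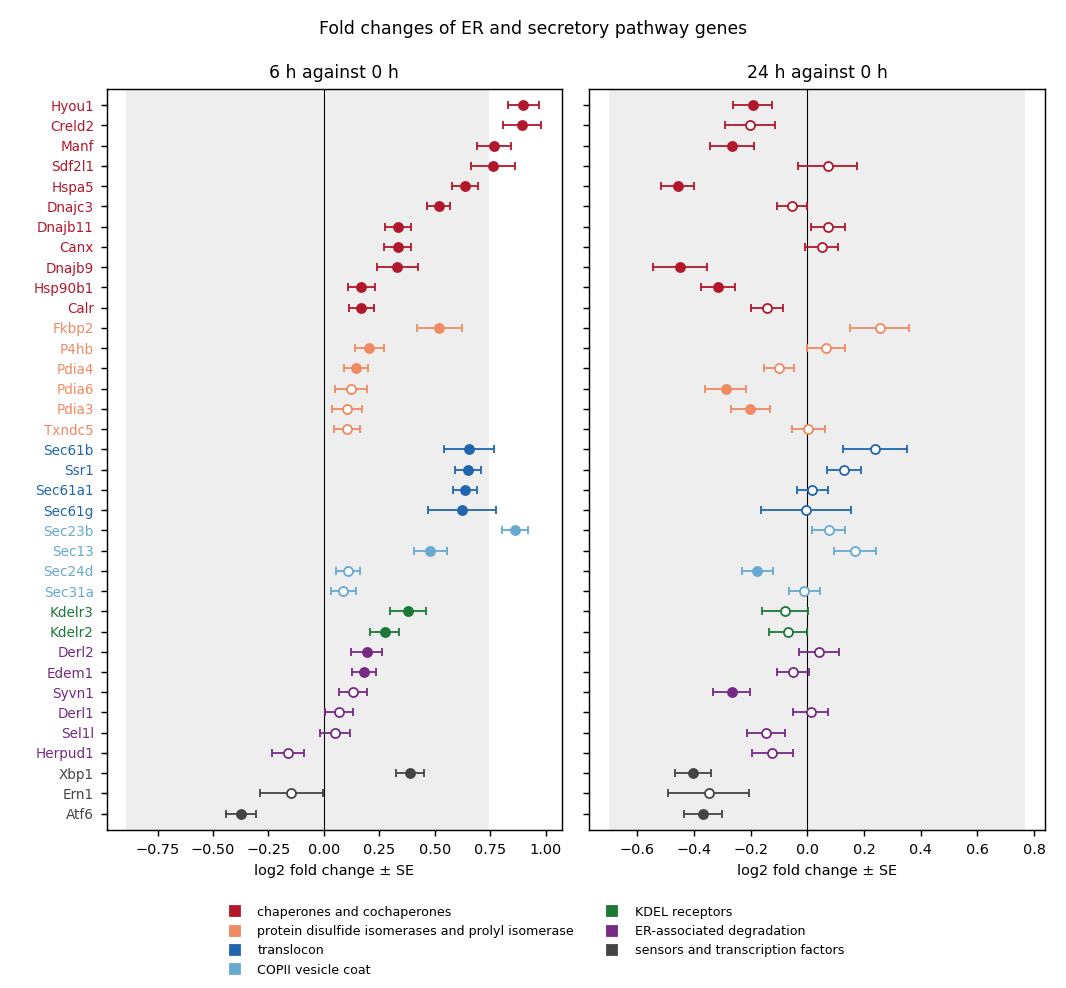
Log2 fold change ± SE at 6 h (left) and 24 h (right) against 0 h for 36 of the 37 genes, coloured by role, with filled points for an adjusted p under 0.05 and a grey band from the 5th to the 95th percentile of all tested genes. Derl3 is left out for its low level. At 6 h all 11 chaperones and all 4 translocon genes are filled and above 0, while at 24 h the 11 filled points are all below 0.

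Most other genes of the same pathways, 127 tested in 6 lists, were also higher at 6 h, but the lists differed. The 29 other folding factors had a median of log2 -0.0031 at 6 h. The lists of other translocon genes and of other ER to Golgi transport had medians of 0.28 and 0.24. At 6 h, 70 of the 127 rose and 14 fell (median log2 0.21). Between 6 h and 24 h, 8 rose and 64 fell (median -0.18), against 17.6% and 18.2% of all tested genes. At 1 h, 6 rose and 4 fell, at 2 h 28 rose and 23 fell, and at 24 h 10 rose and 24 fell. Over all tested genes 6.75% rose and 3.88% fell at 1 h, 20.2% and 17.5% did at 2 h, 20.6% and 19.6% at 6 h, and 12.7% and 13.2% at 24 h. The counts over the 127 genes at 1 h and 2 h are near or under those shares, but those of single lists could differ. Of 7 genes of the PERK arm, 1 rose and 3 fell at 1 h. At 2 h, 9 rose and 1 fell of 28 other genes of the translocon, signal peptidase and N-glycosylation. Of 29 other folding factors, 1 rose and 6 fell at 2 h.

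Of 28 other genes of the translocon, signal peptidase and N-glycosylation, 22 rose and 1 fell at 6 h, against 20.6% and 19.6% of all tested genes. Serp1, a small protein of the translocon known as RAMP4, rose from 344 ± 13.1 to 557 ± 14.7 CPM (log2 0.69 ± 0.062) and fell by 0.29 ± 0.062 at 24 h. Srprb, the beta subunit of the signal recognition particle receptor, rose by 0.67 ± 0.097 at 6 h. Spcs3, a subunit of signal peptidase, rose by 0.27 ± 0.065 at 6 h and fell by 0.60 ± 0.066 at 24 h. Of 35 other genes of ER to Golgi transport, 24 rose and 1 fell at 6 h. The SNARE gene Ykt6 rose by 0.22 ± 0.053 at 1 h, by 0.35 ± 0.053 at 2 h and by 0.51 ± 0.053 at 6 h, and the COPI coat subunit Copg1 rose by 0.49 ± 0.057 at 6 h. Mia2, a cargo receptor at ER exit sites, and Stx5a, a SNARE of the Golgi, fell by 0.37 ± 0.060 and fell by 0.35 ± 0.065 at 2 h, respectively.

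Of 29 other folding factors, 9 were higher and 4 lower at 6 h (median log2 -0.0031), against 20.6% and 19.6% of all tested genes. Ero1l, the oxidase that recharges disulfide isomerases, rose from 139 ± 8.37 to 227 ± 6.67 CPM at 6 h (log2 0.71 ± 0.066), and the glucosidase gene Mogs rose by 0.40 ± 0.069. In contrast, Sil1, a nucleotide exchange factor of BiP, fell by 0.34 ± 0.080 at 6 h and fell by 0.53 ± 0.081 at 24 h. Uggt1, which re-glucosylates unfolded glycoproteins, fell by 0.48 ± 0.077 at 2 h and at 6 h differed from 0 h by -0.27 ± 0.077. Of 20 other degradation genes, 10 rose and 4 fell at 6 h. Herpud2, the homologue of Herpud1, was lower at every treated time, from 78.8 ± 4.40 CPM at 0 h to 44.5 ± 1.86 CPM at 2 h (log2 -0.82 ± 0.061). The lectin gene Os9 fell by 0.42 ± 0.064 at 24 h, and the ubiquitin-conjugating enzyme gene Ube2j2 rose by 0.52 ± 0.088 at 2 h. Ube2g2, another such enzyme, rose by 0.32 ± 0.063 at 2 h and fell by 0.29 ± 0.064 at 24 h.

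The PERK arm, which acts through phosphorylation of eIF2α and the transcription factors ATF4 and CHOP, had 7 genes on its list. Of these, 1 rose and 3 fell at 1 h, against 6.75% and 3.88% of all tested genes. At 2 h 2 rose and 2 fell, and at both 6 h and 24 h 2 rose and 1 fell, against shares of all tested genes of 20.2% and 17.5% at 2 h, 20.6% and 19.6% at 6 h and 12.7% and 13.2% at 24 h. Ppp1r15a, the phosphatase subunit GADD34 that reverses eIF2α phosphorylation, fell by 0.62 ± 0.082 at 1 h and by 0.93 ± 0.083 at 2 h, from 85.2 ± 5.78 to 44.6 ± 4.54 CPM. Eif2ak3, which encodes PERK, fell by 0.34 ± 0.059 at 1 h and by 0.44 ± 0.059 at 2 h. Ddit3, which encodes CHOP, fell by 0.44 ± 0.093 at 1 h and rose by 0.40 ± 0.092 at 24 h. Sesn2, a stress-induced inhibitor of mTORC1 signalling, rose by 0.25 ± 0.073 at 6 h and by 0.55 ± 0.073 at 24 h. Of 8 other sensors and transducers, 3 rose and 3 fell at 6 h, against 20.6% and 19.6% of all tested genes. Mbtps1 and Mbtps2, the site-1 and site-2 proteases that cleave ATF6, differed by log2 -0.31 ± 0.058 and -0.31 ± 0.068 at 6 h, and both falls passed the test. Creb3l2, a membrane-bound transcription factor of the ER, rose by 0.29 ± 0.087 at 6 h, and Traf2, an adaptor that binds IRE1, rose by 0.39 ± 0.090 at 2 h.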

How the data were processed

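Gene counts of 20 RNA-seq libraries were used, as whole-number counts per gene that the authors deposited in 1 table. Per the submitters' processing notes, FastQC, STAR and edgeR were used with the genome build mm10; for the counting tool, annotation and use of strand: not given in the sources used here. It was used as deposited, and all of its count columns were matched to the labels. The libraries held 13734425 to 22687173 counts, of which 1.31% to 1.75% were mitochondrial.

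Counts were tested in R 4.3.3 with edgeR 4.0.16 (limma 3.58.1): filterByExpr over the 5 times kept 14420 of 29986 genes and 99.9% of counts, followed by scaling by the trimmed mean of M-values, a robust quasi-likelihood fit of time over all 20 libraries, and Benjamini-Hochberg adjustment over all tested genes at 0.05. The 37 genes were not tested separately. The fit was tested on simulated data. Alternatives were DESeq2 1.42.0, other scaling and filters, a replicate block, fewer libraries and leaving out each library.

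The members and lists were chosen with earlier results of these data known. Library values are given for Hspa5, Xbp1, Ern1 and Atf6 and, in each role, for the 2 genes (3 for chaperones) with the largest called change against 0 h and a mean of at least 5 CPM in the higher group. From each list of other pathway genes, up to 2 called genes per direction are named.

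Replicate numbers run from 1 to 4 at each time. Over 40 pairs of libraries with the same number, deviations from the group means correlated at r = -0.17 to 0.13 (median -0.0039), and 2 of 20 libraries were closest to their own number, so the numbers were not taken to pair the samples. The libraries 0 h replicates 1 and 2 carry 1 shared description in the labels, but their counts differed beyond sampling noise (chi-square over its degrees of freedom was 8.60, and 2.88 to 52.5 over all replicate pairs), and both were kept.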

Additional observations from a re-analysis of the deposited data

Results flagged for a closer look

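Among 85 gene and time groups of 4 libraries checked for a library far from the others, 2 stood out, and chance flags about 1 in 20 such groups. Syvn1 (Hrd1) stood at 91.6 CPM in 2 h replicate 3, against 78.5 to 80.0 CPM in the other 3 libraries at 2 h. Hspa5 (BiP) stood at 2315 CPM in 2 h replicate 4, against 1940 to 2003 CPM in the other 3. Both are at 2 h, the time with the largest spread between libraries, and neither gene passed the test at 2 h against 0 h.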

How the results depend on the processing

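The counts of called genes at 6 h against 0 h (26), 6 h against 2 h (27), 24 h against 6 h (29) and over any time (32) stayed within 1.5 times under every alternative run, with ranges of 21 to 33, 19 to 32, 26 to 34 and 31 to 36. The other 4 counts moved further. The 1 h count of 4 was 2 without the count filter and 2 to 5 on leaving out each library. The 2 h count of 17 was 6 with only the 8 libraries compared and 12 to 19 on leaving out each library. The 24 h count of 11 was 20 with only the 8 libraries compared, 17 with 2 h replicates 1 and 2 left out, and 8 to 19 on leaving out each library. The count of 2 between 1 h and 2 h was 6 by DESeq2, 0 with only the 8 libraries compared, 8 with 2 h replicates 1 and 2 left out, and 1 to 6 on leaving out each library. The numbers called over all tested genes moved too. At 1 h they were 1533, and 1476 without the count filter. At 2 h they were 5443, and 3646 with only the 8 libraries compared. At 24 h they were 3746, and 4938 with only the 8 libraries compared. Between 1 h and 2 h they were 2357, with 2685 by DESeq2 and 776 with only the 8 libraries compared. The cause of these moves was not tested. With a replicate block the counts were 4, 16, 26 and 11 at 1, 2, 6 and 24 h against 0 h, and 2, 27 and 28 for the steps from 1 to 2 h, 2 to 6 h and 6 to 24 h, with 32 over any time. Called in every fit that left out 1 library were 2 of 4 genes at 1 h, 10 of 17 at 2 h, 21 of 26 at 6 h and 7 of 11 at 24 h. Depth limits Derl3 and Sec61g most, with means of 0.483 and 5.58 CPM at 0 h.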
